A study of Homo sapiens with 12 samples.

Results

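SK-ES1 is an established human cell line of Ewing sarcoma, a tumour of bone and soft tissue. The samples described here are the 6 libraries labelled wild-type, with titles ending in SK_CTRL, out of 12 RNA sequencing libraries of SK-ES1 xenografts, and they are called control 1 to control 6. In a xenograft the human cells grow as a tumour inside an animal host, whose species is not stated. The other 6 libraries come from xenografts with knock-down of RING1B, a ubiquitin ligase of Polycomb repressive complex 1. They were used only to ask whether genes that differed from control to control also differed from library to library there, and the groups were not compared with each other. The labels give no control construct, no silencing construct, no treatment, no time of growth and no age of the host. All 6 controls derive from a single cell line, so their spread is between tumours of that line and says nothing of other patients' tumours. Control titles carry the number 60 (controls 1 and 2), 61 (control 3), 62 (controls 4 and 5) or 64 (control 6), and a letter. What these mark is not explained, nor is it said that each library had an animal of its own, so the spread may be partly technical.

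Ewing sarcoma is driven by a fusion protein, most often EWSR1-FLI1, which joins the activating part of the RNA-binding protein EWSR1 to the DNA-binding domain of the ETS transcription factor FLI1. The fusion binds GGAA repeats and makes enhancers out of them, which turns on genes such as NR0B1, NKX2-2, CCND1 and PRKCB. Cells of this tumour are known for carrying neural and mesenchymal features side by side, and pathologists look for CD99 on the membrane and NKX2-2 in the nucleus.

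Total counts ranged from 24574794 to 26678325 per control library, and 3 counts, the upper limit that a count of 0 allows, equalled 0.112 to 0.122 CPM (a gene's counts per 1000000 counts of the library). That limit covers counting error only. Levels of different genes are given in TPM, for which counts were divided by the gene length in the deposited table and each library was scaled to a total of 1000000. Differences of 1 gene between libraries are best read in CPM scaled by TMM factors, which ranged from 0.941 to 1.03. A gene is called on at 1 TPM or more in all 6 controls, off below 0.1 TPM in all 6, and intermediate otherwise. Control 6 stood apart: mitochondrially encoded genes held 14.4% of its counts and 42.9% of its TPM, against 4.65% to 7.08% of counts and 18.2% to 27.3% of TPM in controls 1 to 5. Since TPM values share a total, nuclear genes read lower in control 6 on that scale, and each fall named for it is given in scaled CPM. Ranges and library values given in TPM show the level of a gene, and their low end is often control 6.

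Of the 5 markers of Ewing sarcoma, 4 were on and CD99 was listed at 0 in every control. CD99, a membrane glycoprotein, lies in the pseudoautosomal region, where the X and Y chromosomes have the same sequence (GENCODE 29 on hg38: chromosome X, 2691133 to 2741309, plus strand), and the deposited table lists its exons on both chromosomes. To show that the X and Y copies are alike at this locus, the bases just before its annotated start are printed from RefSeq's promoter windows (GRCh38.p14, plus strand), with no part in capitals since every base is shared. They lie before the transcript, so reads of its mRNA do not contain them.
CD99, chrX:2691045-2691132: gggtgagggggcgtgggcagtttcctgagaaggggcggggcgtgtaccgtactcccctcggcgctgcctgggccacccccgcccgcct
CD99, chrY:2691045-2691132: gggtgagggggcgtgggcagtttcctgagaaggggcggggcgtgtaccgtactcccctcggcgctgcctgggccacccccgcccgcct
The windows from which these 88 bases come were identical at 300 of 300 bases. All 18 protein-coding genes annotated on both chromosomes were at 0 in all 12 libraries, among them SLC25A6 (picked with its values known), a carrier that exchanges ADP and ATP across the mitochondrial membrane. The cause of these zeros was not tested, and CD99 is counted neither as on nor as off. XG, a blood group gene that starts just past CD99 on X, was measured at 46.8 to 57.5 TPM (a gene picked with its values known).

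NKX2-2, a homeobox repressor of the neural tube, had 58.7, 50.4, 43.9, 40.1, 40.6 and 30.4 TPM in controls 1 to 6, a mean of 44.0 ± 9.67 (SD, n = 6). It lies on chromosome 20 from 21511010 to 21514026, minus strand. On the scaled CPM scale controls 2 to 6 were close together, from 24.04 to 29.55, and control 1 was highest at 36.3. NR0B1, an orphan nuclear receptor on chromosome X (30304206 to 30309598), had 210, 196, 124, 155, 118 and 73.6 CPM. Controls 1 and 2 were highest and control 6 lowest, a 2.86-fold range, and NR0B1 was the only marker in the top 10% of genes by excess spread, defined below.

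CCND1, cyclin D1 of the G1 phase, was the most abundant marker per length and the steadiest. Its TPM was 612 to 777 with a median of 753, which placed it 84th of 19918 nuclear protein-coding genes, and in scaled CPM its highest library, control 6, was 1.16-fold above its lowest, control 4. PRKCB, protein kinase C beta, lies on chromosome 16 (23835946 to 24220611) and ranged from 85.3 to 169 TPM with a median of 133. Controls 1 to 3 held its 3 highest values, in TPM and in scaled CPM. EWSR1 ranged from 88.0 to 164 TPM and FLI1 from 24.03 to 32.72 TPM. Counts per gene do not separate the fusion from unfused EWSR1 or FLI1, so neither value is the level of the fusion. RNF2, the gene of RING1B, was on in all controls at 30.4 to 45.3 TPM (median 36.8).

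**Figure D1:**
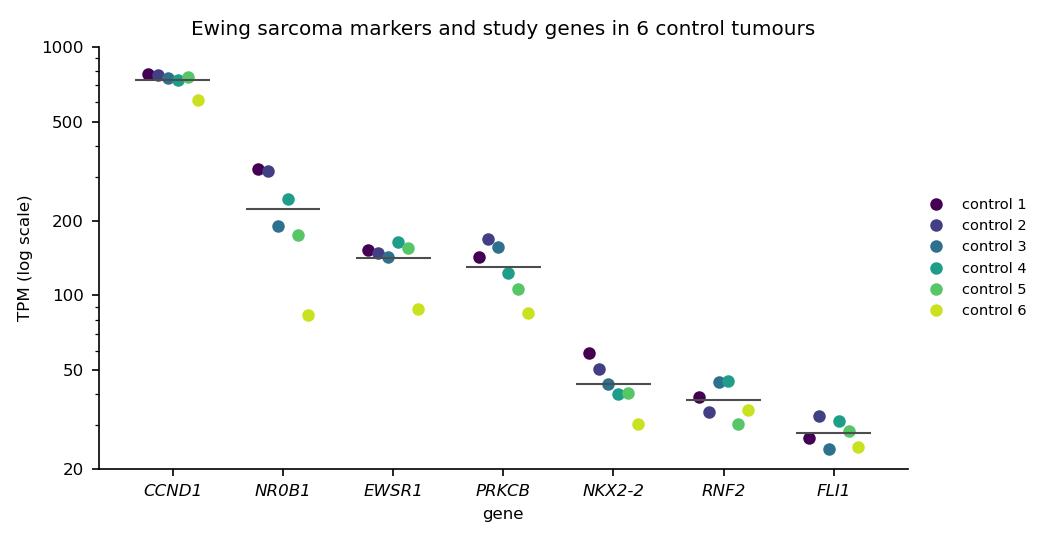
TPM (vertical axis, log scale) of 4 Ewing sarcoma markers and of EWSR1, FLI1 and RNF2 in the 6 control libraries, 1 point a library and a bar at the mean. CCND1 sits between 612 and 777 in all 6, and NR0B1 spreads from 83.4 to 323; values of control 6 read lower on this scale, since in scaled CPM it is the highest library for CCND1, and CD99 at 0 cannot be drawn on a log axis.

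Other genes that EWSR1-FLI1 is known to activate were nearly all present: 31 of 33 were on, 2 intermediate and none off. The list was chosen with earlier results of these data known, so its share on may be raised by the choice. Over all 19931 protein-coding genes, 57.3% were on (11416 genes) and 20.2% were off (4019 genes), a figure that includes the 18 pseudoautosomal genes. The highest of the 33 were JAK1, a cytokine receptor kinase (462 to 737 TPM, median 579), CAV1, the caveolar coat protein caveolin 1 (507 to 655, median 556), and FCGRT, the neonatal Fc receptor (369 to 643, median 504). UGT3A2, a sugar transferase (170 to 371 TPM), and STEAP1, a metalloreductase of the membrane (263 to 294 TPM), followed. FATE1, a testis gene, was intermediate and fell in the top 10% by excess spread, with 2.15, 2.48, 1.55, 1.69, 0.756 and 0.287 CPM in controls 1 to 6.

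Among nuclear protein-coding genes the highest TPM was that of ACTG1, cytoplasmic gamma actin, with 5079 to 9001 and a median of 8161. TMSB10, which binds actin monomers (median 5372 TPM), EEF2, the translocation factor of translation (median 3710), and FTL, the light chain of ferritin (median 3707), were next outside the ribosomal protein genes. These made up 13 of the 30 highest genes, the lowest of them RPS4X with a mean of 1473 TPM, and all 77 of them together held 4.62% to 5.76% of the counts of a library. Metabolism gave ATP5F1B, the beta subunit of ATP synthase, NDUFS5, a subunit of respiratory complex I, and the glycolytic enzymes ENO1 and GAPDH. Chaperones gave HSP90AB1, HSPA8 and, in the endoplasmic reticulum, HSP90B1 and CALR. The rest were ACTB, TUBB, PABPC1, NCL and TIMP1, an inhibitor of matrix metalloproteinases and the only secreted matrix gene of the 30 (830 to 1902 TPM, median 1514).

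Ranking by CPM, which does not correct for length, kept 16 of these 30 genes. The median length was 2714 bases in the 30 highest by TPM and 4818 bases in the 30 highest by CPM. NDUFS5, with 548 bases, was 23rd by TPM and 547th by CPM, and RPS12, with 767 bases, was 9th and 164th. ENO1, with 5276 bases, went the other way, from 7th by TPM to 2nd by CPM. Gene length in the table covers the exons of all annotated transcripts, so TPM is low for genes with many unused exons. The 10 highest nuclear coding genes held 5.45% of the TPM of all of them, the 100 highest 19.5% and the 1000 highest 53.9%.

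**Figure D2:**
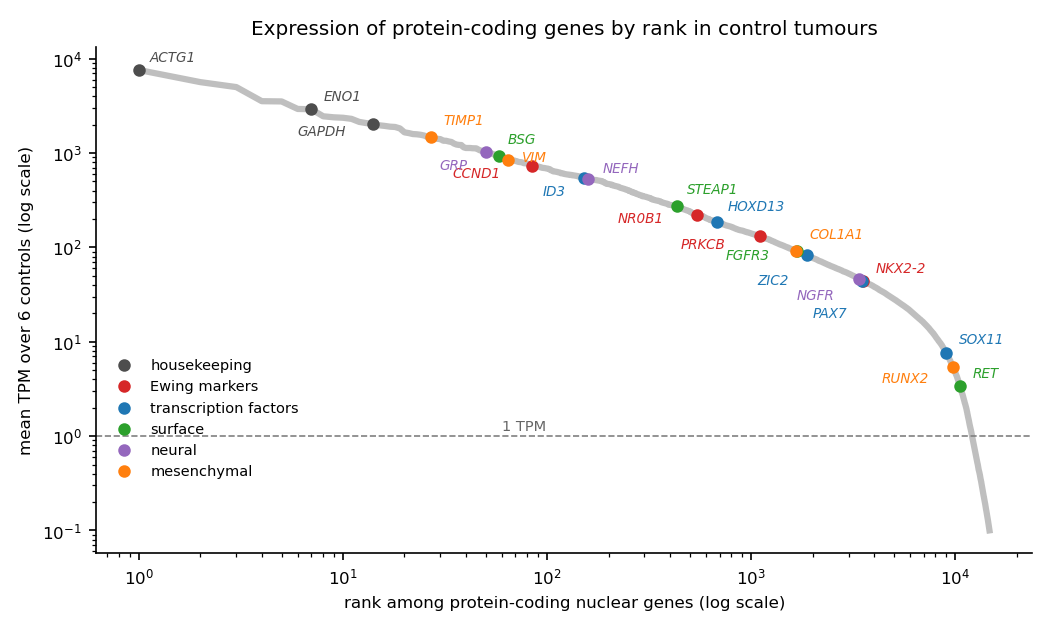
Mean TPM over 6 controls (log scale) against rank among nuclear protein-coding genes (log scale), with genes named in the text as points. Ewing sarcoma markers lie between CCND1 at 734 TPM and NKX2-2 at 44.0 TPM, GRP is 50th and NEFH 158th, and SOX11, RUNX2 and RET have mean TPM of 7.63, 5.42 and 3.36.

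Transcription factors were on about as often as other coding genes, 304 of 505 (60.2%), and 74 (14.7%) were off, against 57.3% and 20.2% of all coding genes. Of the 505, 10 reached 100 TPM in every control, against 1006 of all 19931 coding genes. Among the 10 factors were the helix-loop-helix inhibitors ID3, ID1 and ID2, the stress factors ATF4, DDIT3 and XBP1, the AP-1 members JUND and JUNB, and HOXD13. ID3 was highest with 312 to 693 TPM (median 579), ahead of ATF4 with 352 to 582 (median 483).

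HOX genes, which set position along the body and limb axes, differed by cluster. None of the 39 was off by the rule used, but 13 were intermediate, some of them close to 0. The lowest mean was 0.0184 TPM in HOXB and 0.0623 TPM in HOXA, where the median of the means was 0.399 TPM. In the HOXD cluster 7 of 9 were on, in HOXC 8 of 9, in HOXB 8 of 10 and in HOXA 3 of 11. HOXD13, a gene of the most distal limb and of the posterior trunk, had 165, 171, 185, 194, 197 and 206 TPM in controls 1 to 6. It was lowest in controls 1 and 2 and highest in control 6. HOXB13 was 2nd of the HOX genes with 69.0 to 145 TPM (median 130), while the highest gene of the HOXA cluster, HOXA11, had a mean of 6.92 TPM. HOXB7, HOXD10 and HOXD8 completed the 5 highest with means from 40.6 to 54.9 TPM. HOXC11 was the only HOX gene in the top 10% by excess spread (11.3 to 20.7 TPM).

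Other homeobox genes were led by MSX1, which acts in limb and craniofacial mesenchyme (50.9 to 125 TPM, median 96.7), TGIF2, PBX2, ALX4 and DLX5, and 43 of 71 were on. LHX8, IRX6 and NKX6-2 had no count in any control, and EMX1 of the cerebral cortex had 4 counts in all. PAX and POU genes were on in 11 of 23. POU3F1 (66.3 to 159 TPM), PAX7, known for muscle stem cells and neural crest (31.7 to 70.0), POU3F2 (25.7 to 34.2), PAX9 and PAX1 were highest, and PAX2, PAX4, PAX5, POU2F3 and POU3F3 were off. Of the 18 SOX genes listed, 7 were on, led by SOX12 (64.0 to 110 TPM), SOX18 (29.1 to 82.2) and SOX4 (30.6 to 44.0). SOX10, the regulator of neural crest and glia, SOX1 and SOX14 were off, with 1, 2 and 0 counts over all 6 controls.

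In the helix-loop-helix list 30 of 58 were on, and HES1 and HES6, which act in and against Notch signalling, came next after the ID genes (medians 152 and 145 TPM). Off were 15 of the 58, among them the neuronal determinants ATOH1, NEUROG1, NEUROD2 and NEUROD4 and the heart gene HAND1. NEUROD1 was on instead, at 10.2 to 26.3 TPM. Zinc finger factors were on in 44 of 74, led by the serum-response genes EGR2 (91.3 to 222 TPM) and EGR1 (71.1 to 207), ZIC2 of the dorsal neural tube (73.7 to 97.0) and CTCFL, the germline paralogue of CTCF (68.3 to 90.8). ZIC1 and ZIC4 were off beside ZIC2, as were GATA1 and GATA5.

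FOX genes were on in 18 of 37. FOXM1 of the mitotic programme (39.2 to 97.1 TPM), FOXK2, FOXD3 of the neural crest (42.5 to 66.0), FOXJ3 and FOXP4 led, and FOXA2, FOXB1, FOXF1 and FOXI1 were off. Nuclear receptors were on in 27 of 48 and NR0B1 led them, ahead of NR2F6 (42.2 to 72.2 TPM), ESRRB (29.4 to 76.3), RXRB and NR1H2. The progesterone receptor PGR and the bile acid receptor NR1H4 had no counts. CBFB and RUNX3, which form a DNA-binding pair, TEAD2, TEAD4 and their partner YAP1 led the list of T-box, TEAD, RUNX and related genes, of which 31 of 45 were on. TBXT, the brachyury gene of notochord, TFAP2C, TFAP2D and TBX10 had no counts, and TBX5 was off as well. In the ETS and FET list 20 of 29 were on. ERF, EWSR1, ELK1 and TAF15 were among the highest, and the epithelial and lymphoid members ELF3, ELF5, EHF and SPIB were off.

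**Figure D3:**
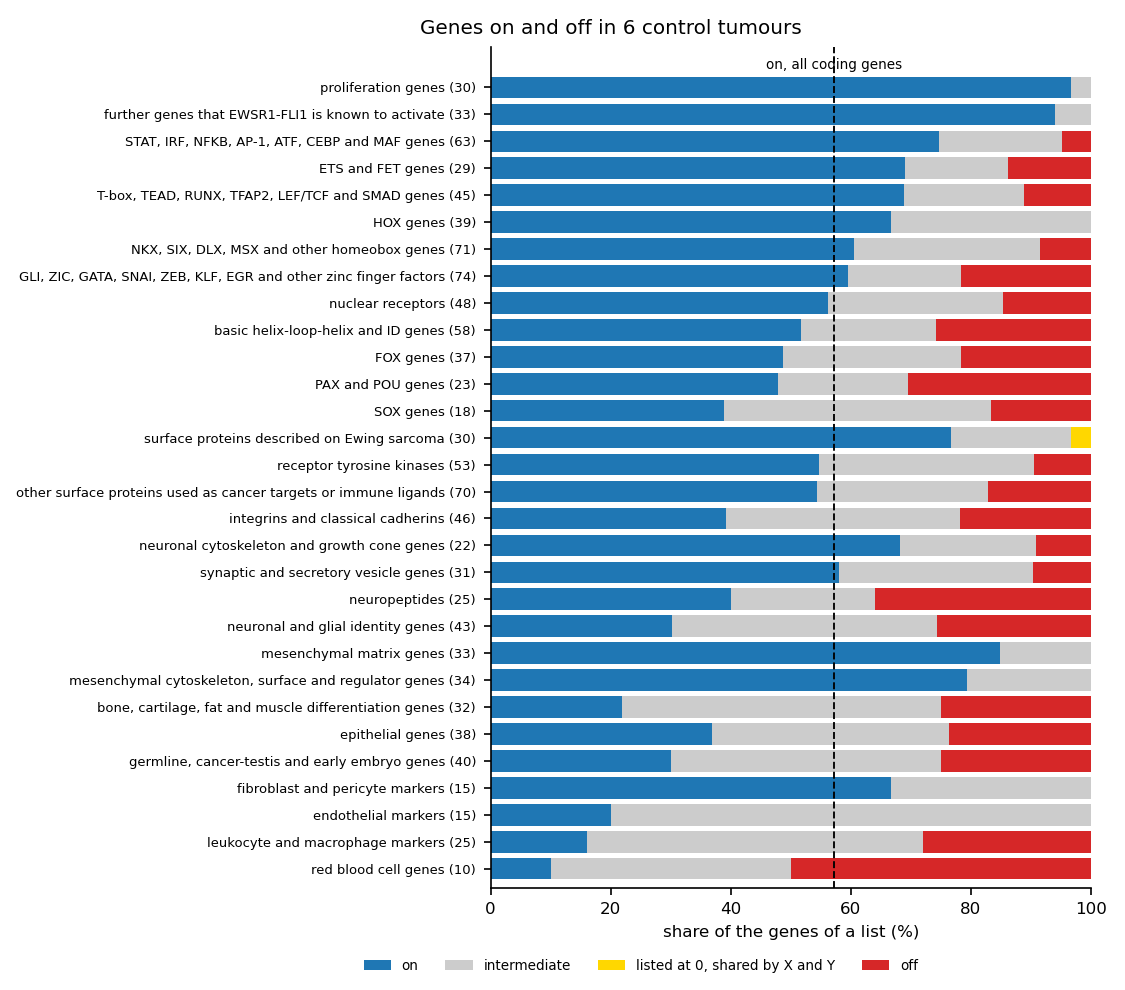
Share (%) of the genes of 30 lists that were on, intermediate or off in the 6 controls, with the size of each list in parentheses and a dashed line at 57.3%, the share of all coding genes that were on. Proliferation genes, EWSR1-FLI1 target genes and mesenchymal matrix genes lie right of the line, and neuronal identity genes, mesenchymal lineage genes and blood cell markers lie left of it.

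Surface proteins were on in 101 of 192 (52.6%) and off in 27 (14.1%), so their share on was near that of all coding genes. BSG, the immunoglobulin superfamily protein basigin, was highest (587 to 1142 TPM, median 965), followed by CD63, a tetraspanin of endosomes (277 to 447), and B2M, the light chain of MHC class I (344 to 437). Of surface proteins described on Ewing sarcoma, 23 of 30 were on, 6 were intermediate and CD99 could not be read. STEAP1 led with 265, 294, 270, 286, 263 and 263 TPM, the narrowest range in TPM of the 5 highest. In scaled CPM, however, control 6 stood above the others for STEAP1, at 171 against at most 134. After STEAP1 came SLC1A5, a glutamine transporter (131 to 255 TPM), LINGO1, a neuronal leucine-rich repeat protein (125 to 218), TFRC, the transferrin receptor (76.3 to 143), and TNFRSF10B, a TRAIL death receptor (48.1 to 109).

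Receptor tyrosine kinases were on in 29 of 53 and off in 5. FGFR3 led (41.2 to 131 TPM, median 95.2), then EPHB4, PTK7, EPHA3 and EPHB3 with medians from 31.2 to 53.1 TPM. EGFR was off with 8 counts over the 6 controls, EPHA6 and ROS1 had none, and NTRK2 and NTRK3 had 5 each. RET, the receptor of the GDNF family, was intermediate with 0.868, 2.03, 4.66, 4.16, 22.2 and 10.2 CPM, highest in controls 5 and 6.

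Integrins and cadherins were on in 18 of 46. ITGB2, the beta subunit of leukocyte integrins, was the highest of them at 161 to 402 TPM (median 291), although other leukocyte markers were low or absent, as given below. ITGB1 (110 to 183 TPM), ITGA5, the osteoblast cadherin CDH11 (31.5 to 64.1) and ITGAV followed. Off were ITGA8, ITGAX, ITGB6, ITGB7, ITGB8 and the epithelial cadherin CDH1, which had 5 counts over all controls. Among targets of other cancer therapies, the immune checkpoint ligands PDCD1LG2 and CD86 and the B cell and myeloid antigens MS4A1, CD22 and CD33 were off. HLA-E, a non-classical MHC class I gene, was on at 90.6 to 247 TPM (median 181).

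Neural genes were on in 56 of 121 (46.3%) and off in 25 (20.7%), against 57.3% and 20.2% of all coding genes. Their share off was thus near that of all coding genes, and the groups within them differed. Genes of the neuronal cytoskeleton and growth cone were on in 15 of 22. STMN1, a microtubule destabiliser that dividing cells also use, had 487 to 682 TPM, and NEFH, the heavy neurofilament subunit, had 615, 569, 469, 691, 500 and 354. STMN4 (143 to 264 TPM), STMN3 (83.3 to 176) and the tau gene MAPT (62.8 to 150) followed, while DCX, of migrating neurons, and GFAP, of astrocytes, were off.

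Synaptic and secretory vesicle genes were on in 18 of 31 (58.1%), near the 57.3% of all coding genes. UCHL1, a neuronal ubiquitin hydrolase, led at 759 to 1252 TPM (median 1118). SYT1, a calcium sensor of synaptic vesicles (68.7 to 124 TPM), SYN1 (69.4 to 93.5), SCG2 and ENO2 came next, and CPLX2 and NRXN3 were off. Of 25 neuropeptide genes 10 were on and 9 off. GRP, the gastrin-releasing peptide, was far above the rest with 1037, 1003, 793, 1004, 1431 and 933 TPM, and was 50th of all nuclear coding genes. NMB, its close relative (49.3 to 74.5 TPM), POMC (28.4 to 55.1), NTS and GAL were lower, and VIP, TAC1 and SST had no counts. ADCYAP1 and CALCA were off with 1 and 2 counts.

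Genes that mark a settled neuronal or glial identity were on in only 13 of 43, and 11 were off. NGFR, the low-affinity neurotrophin receptor of neural crest (22.8 to 74.3 TPM, median 44.0), SLC17A7, a vesicular glutamate transporter (17.8 to 30.5), GATA3, NEUROD1 and SLC18A3, the vesicular acetylcholine transporter, were the highest. TH and DDC, the enzymes of catecholamine synthesis, had 1 and 2 counts over the 6 controls, and NEUROG1 and ELAVL2 had none. NEFH, STMN1 and GRP, none under 354 TPM in any control, thus stood beside catecholamine enzymes at or near 0 counts in all 6 tumours, while most neuropeptides were low (median of the 25 means, 0.203 TPM).

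Mesenchymal genes were on in 62 of 99 (62.6%) and off in 8 (8.08%), against 57.3% and 20.2% of all coding genes. Matrix genes were on in 28 of 33 and none was off. After TIMP1 came SPARC (183 to 242 TPM, median 210), COL5A2 (114 to 215), COL3A1 (115 to 209) and PCOLCE, which aids procollagen cleavage (94.8 to 170). In the list of cytoskeleton, surface and regulator genes 27 of 34 were on, led by VIM, the intermediate filament of mesenchyme (684 to 1066 TPM), S100A4, S100A11, CAV1 and LGALS1. Genes of bone, cartilage, fat and muscle differentiation were on in only 7 of 32, 8 were off, and just 2 reached 10 TPM in all 6. ALPL, the alkaline phosphatase of mineralising bone (30.4 to 77.7 TPM), TNNT1, slow troponin T (24.9 to 58.0), ACTA1, CEBPA and RUNX2 (3.34 to 6.51) were highest. SP7 and DMP1 of bone, ACAN and COL9A1 of cartilage and ADIPOQ of fat were off.

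Epithelial genes were on in 14 of 38 (36.8%) and off in 9 (23.7%), against 57.3% and 20.2% of all coding genes. PKP1, a desmosomal plakophilin (228 to 479 TPM), CLDN1 of tight junctions (119 to 439), KRT8 (29.9 to 197), KRT17 and JUP were on at high levels, while CDH1, KRT7, OVOL1, OVOL2 and ELF3 were off. Germline and early embryo genes were on in 12 of 40 (30%) and off in 10 (25%). PRAME (211 to 392 TPM, median 306), CTCFL, MAGEA1 (25.9 to 90.9), MAGEA3 (24.01 to 50.11) and LIPI led. NANOG, LIN28A, DPPA3, TDGF1 and DAZL of pluripotent and germ cells had 0 to 5 counts. MAGEA3 has a near-identical copy in the genome, so how its reads were shared out is uncertain.

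Proliferation genes were on in 29 of 30, led by PCNA (558 to 839 TPM), MCM3 (211 to 430), BIRC5, MCM7 and CCNB1. All 24 genes of cholesterol synthesis were on, with SQLE (343 to 649 TPM), FDFT1 and EBP among the highest. Genes of hypoxia and glycolysis were on in 33 of 35, and unfolded protein and ATF4 response genes in 24 of 26, FGF21 alone being off. Of cell cycle inhibitors and tumour suppressors 14 of 17 were on: CDKN2C (58.6 to 104 TPM), STAG2, CDKN1B, SMARCB1 and RB1 led.

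Markers of other cells that a tumour in a host could hold were mostly low. In bulk RNA, fewer cells of a type and less RNA per cell cannot be told apart, and whether host reads were removed is not given. Of 25 leukocyte and macrophage markers, 16 were under 1 TPM in every control and 7 had no count at all: CD3E, CD3D, MS4A1, C1QA, C1QC, CD163 and S100A8. With ITGB2 the summed level of the list was 466 CPM (control 6) to 820 CPM (control 1), and without it 12.6 to 34.3 CPM with controls 5 and 6 highest. Endothelial markers were under 1 TPM everywhere in 11 of 15, and none was at 0 throughout. Without EGFL7 their sum was 20.5 to 32.1 CPM, highest in control 5. Of the 15, 3 were on, among them EMCN at 3.16 to 6.39 TPM. The adhesion molecule PECAM1, another endothelial gene, had a mean of 0.0636 TPM (picked with its values known). Fibroblast and pericyte markers were on in 10 of 15, and several are matrix genes of the tumour list as well. Without COL3A1 they summed to 420 to 1228 CPM, again highest in control 5, where COL1A1 and COL1A2 alone had 695 and 314 CPM. Of the red cell genes only HBB was on (6.40 to 33.4 TPM), while HBA1 and HBA2, which are near-identical copies, stayed under 1 TPM.

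Spread between controls was measured as the SD of log2 CPM (TMM scaled, prior count 2) over the 6 libraries, for 12312 coding genes that averaged 1 CPM or more and had a name of their own. Since low genes vary more through counting alone, an excess SD was taken as the SD minus the median SD of the genes nearest in mean. The median SD of these genes was 0.24, and 157 of them (1.28%) had an SD of 1 or more. The number was 112 without control 6, 104 of them among the 157, and 35 among genes averaging 5 CPM or more. The 25 coding genes with the largest excess were KRT5, KRT14, SFRP2, SAA1, MYH2, ZNF43, SOX11, FGF19, ADD2, PDPN, DPYSL5, IGSF9, KIF1A, NEFL, RET, NEFM, PAGE1, MAGEB2, CXCL12, ZFP42, MAGEA10, SCX, NSG1, PIWIL2 and MYH1. As they were chosen by their spread, their values are a description and no test was made of them. Of the 25, 20 were intermediate and 5 on, and 23 had a mean under 10 CPM. MYH1, the last inside, had an excess SD of 1.103 and LZTS1, the nearest outside, had 1.097.

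**Figure D4:**
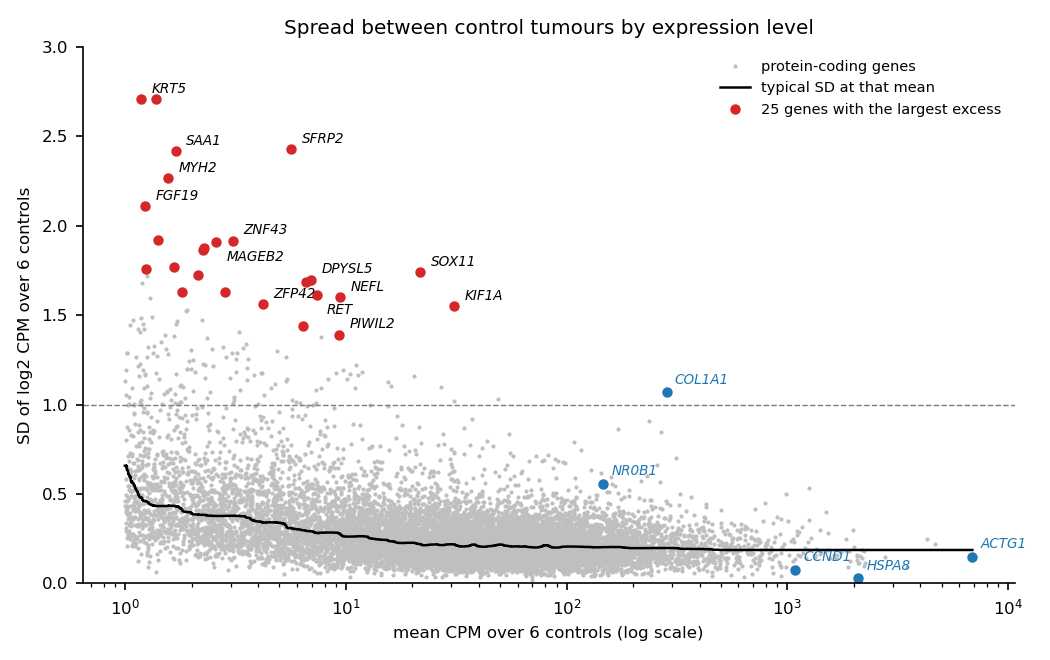
SD of log2 CPM over 6 controls against mean CPM (log scale) for protein-coding genes (grey), with the typical SD at each mean (black line) and the 25 genes of largest excess (red). SOX11 and KIF1A stand high at means above 20 CPM, most of the 25 lie below 10 CPM, and CCND1, HSPA8 and ACTG1 lie below the line.

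Neuronal genes were among the variable ones. In the list of cytoskeleton and growth cone genes, 12 of the 19 that reached 1 CPM on average were in the top 10% by excess SD. The share was 10.1% of all coding genes and 25.5% of all list genes, and the lists were chosen with earlier results of these data known. The share was similar in the lists of matrix (18 of 32), epithelial (10 of 17) and bone, cartilage, fat and muscle genes (7 of 12). SOX11, a transcription factor of immature neurons, had 2.68, 3.52, 18.1, 23.5, 27.4 and 57.5 CPM in controls 1 to 6, a 21.5-fold range. KIF1A, an axonal kinesin in none of the lists, had 5.28, 5.70, 28.01, 46.4, 55.3 and 45.5 CPM. NEFL, the light neurofilament subunit, had 1.40, 1.99, 5.18, 10.5, 17.6 and 20.8 CPM. For all 3 genes controls 1 and 2, which share a title number, lay below the other 4 without overlap. NEFM, the medium subunit, was highest in control 5 (6.77 CPM) and lowest in control 3 (0.279), and DPYSL5, of growth cones, ranged from 0.679 in control 1 to 15.8 in control 6. NEFH did not share this spread (SD 0.20). For the 12 genes of the list, among them NEFL, NEFM and DPYSL5, the highest library was control 6 for 6, control 5 for 5 and control 4 for 1.

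Matrix genes varied as well, with 18 of 32 in the top 10%. COL1A1, the main collagen of bone and skin, had 121, 153, 118, 174, 695 and 445 CPM, and COL1A2, its partner chain, had 96.9, 98.9, 70.7, 207, 314 and 237. POSTN, periostin, had 3.81, 5.31 and 4.06 CPM in controls 1 to 3, more in control 4, and 30.4 and 14.3 CPM in controls 5 and 6. Outside the list, SFRP2, a secreted modulator of Wnt signalling, had 0.151, 0.841, 1.04, 1.37, 16.3 and 14.7 CPM, and its lowest value rests on 4 counts. CXCL12, a stromal chemokine, had 0.377, 0.650, 0.916, 3.29, 4.93 and 7.08 CPM. Control 5 was highest for 13 of the 18 matrix genes and control 6 for the other 5. Without their highest gene, the leukocyte, endothelial and fibroblast lists each had their largest sum in control 5 (34.3, 32.1 and 1228 CPM). Red cell genes without HBB were highest in control 6, at 1.02 CPM. In the top 10%, the 3 leukocyte markers (AIF1, LYZ and CSF1R) were all highest in control 5. So were the 2 endothelial ones, CLDN5 and KDR. Of the 25 leukocyte markers, AIF1 and LYZ, of macrophages, were highest in control 5 (7.48 and 9.99 CPM) and next in control 6 (7.45 and 7.62), against 0.956 to 3.45 and 1.70 to 4.94 in controls 1 to 4. ITGB2 was lowest in control 6 (440 CPM) and highest in control 1 (807), and 7 of the 25, CD163, C1QA and C1QC among them, were at 0. In the fibroblast and pericyte list COL1A1 and COL1A2 are the same matrix genes, while PDGFRB, a receptor of pericytes (picked with its values known), had its lowest values in controls 5 and 6 (46.6 and 34.0 CPM, against 59.4 to 101.4 in the others). Of the 7 members of that list in the top 10%, control 5 was highest for 4, control 2 for 2 and control 6 for 1. The part of other cells in the spread of matrix genes was not tested.

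Muscle genes formed a small set with another order of libraries. MYH2, a fast myosin heavy chain, had 1.55, 3.75, 0.239, 3.65, 0.0398 and 0.0819 CPM, and MYH1 had 0.679, 3.36, 0.159, 2.78, 0.159 and 0.246. Skeletal actin ACTA1 was likewise highest in controls 4 and 2 (10.6 and 8.75 CPM) and lowest in control 3 (1.43). MYOD1 and MYOG, which drive muscle differentiation, were at means of 0.222 and 0.131 TPM (both picked with their values known). KRT5 and KRT14, the keratins of basal epidermis, followed a further pattern: KRT5 was at 0 counts in controls 1, 2 and 5 and at 1.116, 2.63 and 3.52 CPM in controls 3, 4 and 6, and KRT14 had 0 or 1 counts in the former and 1.195, 2.20 and 5.12 CPM in the latter. KRT8, a keratin of simple epithelium, was highest in control 4 at 388 CPM and lowest in control 6 at 82.4, and so did not vary with them. Whether such genes come from tumour cells or from skin and muscle beside the tumour was not tested.

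Germline, cancer-testis and early embryo genes had 9 of 18 in the top 10%, with control 4 highest for 4, control 6 for 4 and control 2 for 1. Some showed a single high library. MAGEB2 had 12.9 CPM in control 4 and 0.239 to 0.612 in the other 5, and PAGE1, a gene of a family with close copies, had 6.90 CPM in control 4 and 0.0765 to 0.598 elsewhere. ZFP42, of early embryonic cells, was highest in control 4 too (15.8 CPM against 0.765 to 3.43). FGF19, a hormone-like fibroblast growth factor, had 6.61 CPM in control 3 and 0.0398 to 0.229 in the others, so its place among the 25 rests on 1 library. SAA1, an acute phase protein, reached 7.08 CPM in control 6 and 2.75 in control 5 against 0.0755 to 0.438 in the rest. MAGEA10 had 6.39 CPM in control 6, 2.31 in control 4, 1.25 in control 1 and 0.191 to 0.637 in the others. PIWIL2, of the germline small RNA pathway, instead spread over all libraries from 1.74 CPM in control 1 to 20.4 in control 6. SCX, a tendon factor, and NSG1, of neuronal endosomes, were highest in control 5 with 4.18 and 14.1 CPM.

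Immediate early genes, which respond within minutes to handling and growth factors, had 9 of 23 in the top 10%, and control 3 was highest for 6 of the 9. FOS had 27.5, 31.4, 85.6, 16.3, 30.8 and 105 CPM, and FOSB had 9.47, 12.6, 37.5, 9.49, 10.03 and 22.2. For both genes controls 3 and 6 were the highest libraries. Of interferon response and MHC class I genes 13 of 27 were in the top 10%, and control 5 was highest for 12 of them, IFI27 with 12.6 CPM against 1.098 to 2.14 elsewhere and BST2 with 26.0 against 4.78 to 13.2. Proliferation genes were steadier, with 2 of 30 in the top 10%. Those were MCM2 and MCM5, of the replicative helicase, and control 6 was lowest for both, at 91.8 CPM for MCM2 (219 to 271 in the others). Mitochondrially encoded genes were all 15 in the top 10%, with control 6 highest for each.

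**Figure D5:**
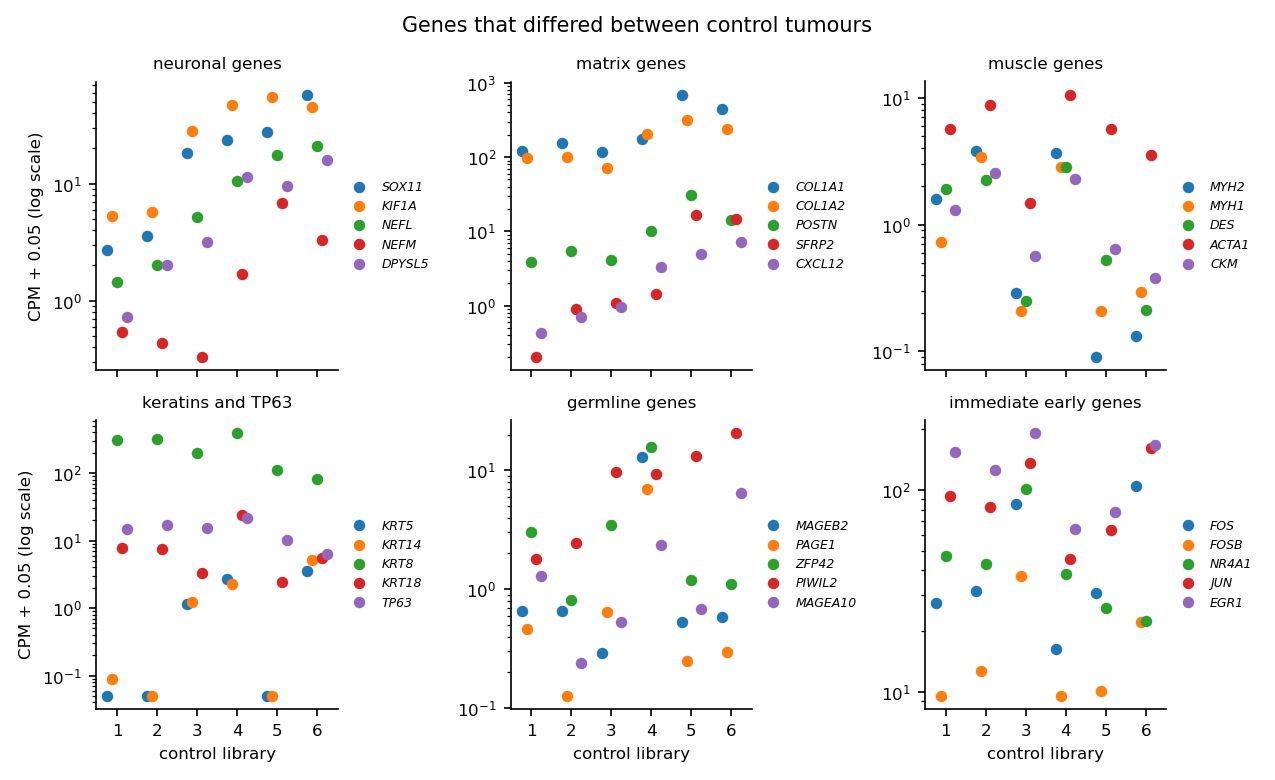
Scaled CPM plus 0.05 (log scale) of 30 genes in control libraries 1 to 6, in panels by gene group, 1 point a library. Neuronal genes are lowest in controls 1 and 2 or in control 3, matrix genes are high in controls 5 and 6, MYH2 and MYH1 are high in controls 1, 2 and 4, KRT5 and KRT14 are near 0 in controls 1, 2 and 5, and MAGEB2 and PAGE1 are high in control 4 alone.

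Many of the variable genes ranked the libraries alike. Of the 157 genes with an SD of 1 or more, control 6 was the highest library for 69 and control 5 for 64. Controls 1 and 2 were both below the other 4 in 97 of the 157 (61.8%) and both above them in 3. Over all coding genes they were lowest in 9.76% and highest in 10.8%, and since the 157 were chosen by spread, a share above that follows in part from the choice. Without control 6 they were lowest in 71 of the 112 genes (63.4%). In a principal component analysis of log2 CPM, the largest component took 56.5% of the variance, with scores of -29.1 and -30.5 for controls 1 and 2, -17.2 for control 3, 0.0206 for control 4, 22.1 for control 5 and 54.7 for control 6. The root mean square log2 difference was 0.29 between controls 1 and 2 and 0.43 between controls 4 and 5, the pairs with a shared title number. The 13 other pairs had 0.35 to 0.74, so the first pair was closer than any of them and the second was not. Control 6, at the end of this order, also had the highest mitochondrial share, and the marker lists of other cells moved as given above. The parts of these and of the title number in the order were not tested.

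Genes chosen in the controls also varied in the 6 knock-down libraries, which played no part in the choice. Of the 25, 20 reached a mean of 1 CPM there, and 16 of these (80%) had an SD of 1 or more, against 2.24% of all 12199 coding genes measured in both. That 2.24% covers genes of all levels, while 23 of the 25 averaged under 10 CPM in the controls. By excess SD, which allows for level, 18 of the 20 were in the top 10% of the knock-down libraries. Of the 157 genes, 136 could be measured and 117 (86.0%) were in that top 10%. SOX11 ranged there from 12.8 to 83.7 CPM, KIF1A from 16.4 to 142 and SFRP2 from 0.0738 to 13.2. MAGEB2 and PAGE1, which had a single high control, had SDs of 0.74 and 0.65 in the knock-down libraries, and MAGEB2 ranged from 0.589 to 2.40 CPM. KRT5, KRT14, MYH2, MYH1 and FGF19 fell short of a mean of 1 CPM there and have no value. Knock-down library 4 was the highest for SOX11, KIF1A, NEFL and DPYSL5, and without it 10 of the 16 genes kept an SD of 1 or more.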

How the data were processed

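RNA of 12 SK-ES1 xenografts was taken up with an RNeasy kit and sequenced from stranded TruSeq mRNA libraries, per the labels' protocols. The deposited table holds raw counts per gene, which the submitters' processing notes tie to FastQC, STAR 2.6.0a, hg38, featureCounts, R 3.6.0 and limma 3.40.2. How strand was set, how reads with several matches were handled and whether host reads were removed: not given in the sources used here. Gene types and spans came from GENCODE 29, matched by symbol (57169 genes, 219 with a shared name left out of the spread).

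TPM, on, off and intermediate, and the SD were computed as the report defines them, with edgeR 4.0.16 in R 4.3.3 and Python 3.11.15. DESeq2 1.42.0 served in alternatives. No test between groups was made. Genes named were the 5 markers, EWSR1, FLI1 and RNF2, the 30 highest nuclear coding genes by TPM, the 5 highest and up to 5 off members of each list, the 25 with the largest excess SD, and up to 2 variable members of each list. The 38 lists hold 1179 distinct genes, all found. Members and lists were chosen with earlier results of these data known. On simulated control libraries (14161 genes), 99 of 100 genes given an added SD of 1 and 100 of 100 given 2 were recovered among as many genes of largest excess SD as had been changed. The changed genes all averaged 5 CPM or more, and 1 dispersion was used for every gene. That dispersion was set lower than the common one estimated for the 6 controls, so the recovery may be too high for the real libraries. Recovery at lower means, where most of the 25 variable genes lie (KRT5 averaged 1.18 CPM), was not simulated. Some genes that the naming rule covers are not reported here.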

Additional observations from a re-analysis of the deposited data

Results flagged for a closer look

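In each of 265 named genes the gap between the highest or lowest control and its nearest neighbour was divided by the range of the 6, on log2 of CPM plus 0.1. The share passed Dixon's 95% critical value for 6 samples in 23 genes (8.68%). Chance flags about 1 in 20 groups, but these genes include the ones chosen for their spread and genes that vary together, so the share cannot be read against that rate. Control 6 was the library apart in 17 of them, lowest in 9 and highest in 8.

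Control 6 was lowest for the helicase genes MCM2 (0.805), MCM7 (0.702) and MCM5 (0.631), the mitotic factor FOXM1 (0.644), the receptor PTK7 (0.767), the integrin ITGA5 (0.710), FOXK2 (0.679), ATP5F1B (0.658) and EEF2 (0.627). It was highest for STEAP1 (0.820), with 171 CPM against 127 to 134 in the others, for the chaperone HSPA8 (0.685) and RPS12 (0.645), and for MT-ND2 (0.754), MT-CO3 (0.728), MT-ND3 (0.646), MT-CO2 (0.639) and MT-ND4 (0.627). HSPA8 was flagged although its highest library was only 1.06-fold above its lowest.

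Control 4 was highest for the cancer-testis genes MAGEB2 (0.797), PRAME (0.662) and PAGE1 (0.627). Control 3 was highest for FGF19 (0.779), control 5 for IFI27 (0.735) and control 1 for CDH11 (0.694).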

How the results depend on the processing

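Genes on ranged from 10607 with a threshold of 2 TPM to 12057 with 0.5 TPM, and 2568 genes were off when 0 counts in all 6 controls were asked for, against 4019 below 0.1 TPM. Ranking by CPM kept 16 of the 30 highest genes. Over all gene types, 306 genes had an SD of at least 1. The number was 46 with a mean of at least 5 CPM and 1024 with no filter on the mean, and leaving out 1 control gave 157 (without control 6) to 374 (without control 4). For coding genes alone, settings added after the data were seen gave 35 with a mean of at least 5 CPM and 112 to 191 when 1 control was left out, against 157. Of the 25 most variable genes, 9 stayed among the 25 with a mean of at least 5 CPM, 11 with the SD of DESeq2's variance-stabilised values, and 18 to 22 when 1 control was left out. Of the 25, the number with an SD of at least 1 in the knock-down libraries was 16, and 10 (without knock-down library 4) to 18 (without library 5) when 1 was left out. Without mitochondrial genes the mean TPM of NKX2-2 was 59.3, of CCND1 997 and of PRKCB 176. The causes of these shifts were not tested beyond what each setting changes by construction. No paired analysis was possible because no groups were compared.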

Other observations

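Outside the protein-coding genes, some transcripts with high levels were picked with their values known. FRG2FP, a transcribed pseudogene on chromosome 3 (198110112 to 198111878), had 473 to 1238 TPM, and TRAV1-2, a T cell receptor alpha variable segment on chromosome 14 (21642889 to 21643578), had 417 to 527 TPM in libraries where CD3E and CD3D had no counts. FRG2FP belongs to a family with close copies, and how reads with several matches were treated is not given, so its level is uncertain.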
